A study of Mus musculus with 8 samples.

Results

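The tissue inhibitors of metalloproteinases (TIMPs) and the matrix metalloproteinases (MMPs) were followed through dorsal and ventral medial entorhinal cortex (MEC), the cortical area whose grid cells change in scale from its dorsal to its ventral end. The 10 genes described are all 4 TIMP genes of the mouse and 6 MMP genes, *Mmp2*, *Mmp14*, *Mmp15*, *Mmp16*, *Mmp17* and *Mmp24*, out of 38553 genes in the expression table. They were chosen around *Timp2*, which was selected on its own dorsal and ventral FPKM as an abundant extracellular gene with more mRNA ventrally, and the other TIMPs and a set of their target proteases were added by name. The dorsoventral values of the family are therefore given as a description without p-values.

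MMPs are zinc-dependent proteases that cut proteins of the extracellular matrix and of the cell surface, and in brain they act on perineuronal nets, synaptic adhesion molecules and the basement membranes of vessels. They are made as inactive proenzymes. TIMPs are secreted proteins that bind the active site of these proteases and block it, while TIMP2 also forms a complex with the membrane-bound MMP14 that brings pro-MMP2 to be activated at the cell surface.

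Every library was made from male C57BL/6JolaHsd mice, 8 weeks of age, with no treatment or genetic change named in the labels. The tissue of 13 mice was used, with 1 slice per mouse (sagittal, 400 µm, right hemisphere) from which dorsal MEC was dissected away from ventral MEC. Each of the 4 libraries of a region pooled the tissue of 3 or 4 mice, so replicate error here means differences among pools, and females or single animals were not measured. FPKM, the unit used throughout, is a gene's fragment number scaled by the length of its exons and by the depth of the library. Total FPKM still differed between libraries, from 298763 to 341402, so comparisons between genes and between libraries are approximate.

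The libraries carried 10780902 to 15359782 fragments assigned to genes. Dorsal libraries are those headed D1, V1, D2 and V2 in the expression table and ventral libraries those headed D3, V3, D4 and V4, and values are listed in that order below. The header letter names the other region for 4 of these 8 libraries (V1, V2, D3 and D4). The regions were taken from the authors' list of dorsal and ventral FPKM, which the means over these columns match within 0.1% for 1435 of 1435 genes, while no other of the 70 possible assignments matched more than 57. No label links a column to a sample. Ratios under the headers' regions, or from the 4 libraries where both sources name the same region, are given beside each gene where they moved by more than the spread between pools.

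The sequences around the annotated start sites of the genes differed in their number of CG pairs. RefSeq (GRCm38.p6) supplied a window from 250 bases before to 50 bases after the start site for 7 of the 10 genes, and not for *Mmp2*, *Mmp16* or *Mmp17*. The GC box, GGGCGG or its reverse complement CCGCCC, is the element bound by Sp1-type factors in many promoters without a TATA box. It occurred in 35.7% of all 32851 such windows. It occurred in the windows of all the MMP genes that had a window, *Mmp14*, *Mmp15* and *Mmp24*. Among the TIMPs it occurred in the windows of *Timp1*, *Timp2* and *Timp3* and not in that of *Timp4*. The 30 bases around the match are shown for these 3 genes, because *Timp2* and *Timp3* are the abundant TIMPs and *Timp1* the scarce TIMP in this tissue. Each is written 5′ to 3′ on the strand of the gene, with the match in capitals. The stretches lie at chrX:20870146-20870175 on the plus strand for *Timp1* and at chr11:118355431-118355460 on the minus strand for *Timp2*. That of *Timp3* lies at chr10:86300413-86300442 on the plus strand. The *Timp3* window held 2 matches, and the 1 shown begins 13 bases after the start site. The *Timp2* match lies before the RefSeq start site but within the gene positions given below, which come from another annotation.
Timp1: ttatcctggggcCCGCCCctaggctttgac
Timp2: ctggggagggctGGGCGGcgcggcgcggga
Timp3: cgccccccggccCCGCCCcctttttggagg

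The 3 TIMP promoters shown thus belonged to genes at opposite ends of the range of FPKM described below. CG pairs were more frequent in the windows of *Timp2* (25) and *Timp3* (24) than in those of *Timp1* (8) and *Timp4* (2), beside a median of 7 over all windows. Among the MMP genes, *Mmp24* had 44 CG pairs, *Mmp15* 22 and *Mmp14* 10. Neither TGAGTCA, the AP-1 site (reverse complement TGACTCA), nor TATAAA, the TATA box (reverse complement TTTATA), occurred on either strand of the 7 windows. Over all windows their shares were 5.20% and 13.6%, so absence from 7 windows is not read as a trait of the family. A match of letters is not a measured binding site.

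*Timp2* was by far the most abundant TIMP mRNA and was higher in every ventral than in every dorsal library. Its gene lies at chr11:118301069-118355740 on the minus strand (GRCm38, positions of GENCODE M21), and its mean FPKM of 101 exceeded that of 96.7% of the 13674 genes tested. FPKM in the dorsal libraries was 80.3, 70.6, 80.0 and 87.1, and in the ventral libraries it was 122, 108, 126 and 130. The lowest ventral library, V3, thus stood above the highest dorsal library, V2, and the regions did not overlap. Mean FPKM was 79.5 ± 6.77 dorsally and 122 ± 9.65 ventrally (SD, n = 4 each), which is 53.0% more in ventral MEC, or a log2(V/D) of 0.61. The model across all genes gave a log2 change of 0.61 with an SE of 0.08 on the log2(FPKM + 1) scale.

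These values rested on 4080 to 4874 fragments per dorsal library and 6090 to 8114 per ventral library, so counting error was small beside the spread between pools. Scaled fragment numbers gave a log2(V/D) of 0.62, and leaving out each library in turn gave ratios between 0.56 and 0.67. With the regions of the column headers the ratio was -0.0436. The 4 libraries on which both sources name the same region gave 0.57, and the other 4 gave 0.65. In bulk tissue, a different number of cells that express a gene and a different amount of its mRNA per cell cannot be told apart.

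Of the 10 genes, 7 reached a mean FPKM of 1 and were tested with all other genes, and 1 of these 7, *Timp2*, passed the thresholds of an adjusted p below 0.05 and a 20% difference and was thus called. Among all genes tested 3.6% were called, 1.45% as V>D and 2.15% as D>V. In edgeR's test on fragment numbers *Timp2* was again the 1 member called, beside 6.35% of all genes in that test. The family was built around a called gene, so nothing is read from this count. Among the 198 genes called V>D, *Timp2* was 7th by mean FPKM. The genes above it included *Sst*, a secreted neuropeptide of interneurons, with a mean FPKM of 165, and *Igfbp5*, a secreted binding protein of insulin-like growth factors, with 106. *Timp2* was therefore not the most abundant extracellular gene of this direction in the present fit.

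**Figure D1:**
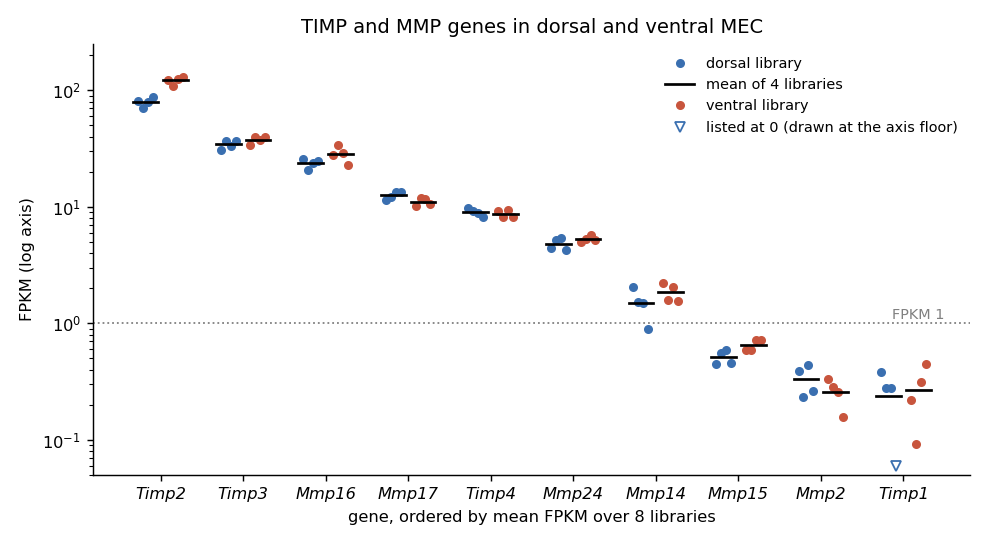
FPKM of the 10 genes in each of 4 dorsal (blue) and 4 ventral (red) libraries on a log axis, with black lines at the mean of each region and genes ordered by mean FPKM. The *Timp2* points sit highest and the ventral ones, 108 to 130, lie above the dorsal ones, 70.6 to 87.1, while the regions overlap for every other gene apart from *Mmp15*.

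*Timp3*, the TIMP that binds firmly to the extracellular matrix and also inhibits several ADAM proteases, was the runner-up at a mean FPKM of 36.0. Its FPKM was 30.7, 36.9, 33.0 and 36.7 dorsally and 33.9, 39.7, 37.4 and 39.6 ventrally. Library D3, the lowest ventral library, lay below 2 dorsal libraries, so the regions overlapped. The log2(V/D) of mean FPKM was 0.13, it lay between 0.08 and 0.18 when each library was left out, and the gene was not called. The 4 libraries whose headers name the same region gave 0.32. *Timp3* (chr10:86300372-86349506, plus strand) lies within *Syn3* on the opposite strand, and exons of the 2 genes overlap. Its fragment numbers are not whole in any library, and the reason was not tested. Whether strand was used in counting is not given in the sources used here, so fragments of *Timp3* and *Syn3* over shared exons may not be separated. *Syn3* itself, a synapsin gene, had an FPKM of 6.32 to 12.6 dorsally and 8.58 to 11.6 ventrally and was not called.

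*Timp4*, a TIMP with a narrow expression that includes brain and heart, was nearly level along the axis. FPKM was 9.81, 9.14, 8.91 and 8.25 in dorsal and 9.17, 8.19, 9.34 and 8.22 in ventral libraries. These ranges overlapped almost completely, the log2(V/D) was -0.05, and the model gave -0.04 (SE 0.08). The 4 libraries with an agreeing header gave -0.19. The gene (chr6:115241892-115252205, minus strand) lies within *Syn2* on the opposite strand with exons that overlap, and *Syn2*, the gene of synapsin II, had a mean FPKM of 101 with a log2(V/D) of 0.02. As for *Timp3*, fragments over shared exons may not be separated, and the *Timp4* values carry this limit.

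*Timp1*, the TIMP best known as an injury-induced gene of glia, was close to absent. Its FPKM was 0.383, 0.280, 0.277 and 0 dorsally and 0.217, 0.0925, 0.311 and 0.447 ventrally, from at most 4 fragments in any library. Summed over a region these were 11 dorsal and 12 ventral fragments, and no fold is given. In library V2, where none was counted, a count of 0 allows up to 3 of the 12432674 fragments assigned, which covers counting error only. The gene (chrX:20870166-20874735, plus strand) lies within an intron of *Syn1* on the opposite strand, and their exons do not overlap.

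Summed over the TIMP genes, FPKM was 123 ± 6.36 in dorsal and 168 ± 9.85 in ventral libraries (SD, n = 4 each), and the regions did not overlap. Without *Timp2* the sum was 43.6 ± 2.48 and 46.6 ± 2.30, and the regions overlapped. The make-up of TIMP mRNA differed accordingly. *Timp2* made up 66.2%, 60.4%, 65.5% and 66.0% of TIMP FPKM in the dorsal libraries and 73.8%, 69.3%, 72.9% and 72.99% in the ventral libraries. Its mean share was 7.70 percentage points higher ventrally, and between 6.31 and 8.68 points higher when each library was left out. The share of *Timp4* was 7.36% ± 0.813 dorsally and 5.20% ± 0.418 ventrally without overlap of the regions, although its FPKM overlapped, since the total to which it is set was larger. The share of *Timp3*, 27.9% ± 2.63 and 22.4% ± 2.11, overlapped.

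**Figure D2:**
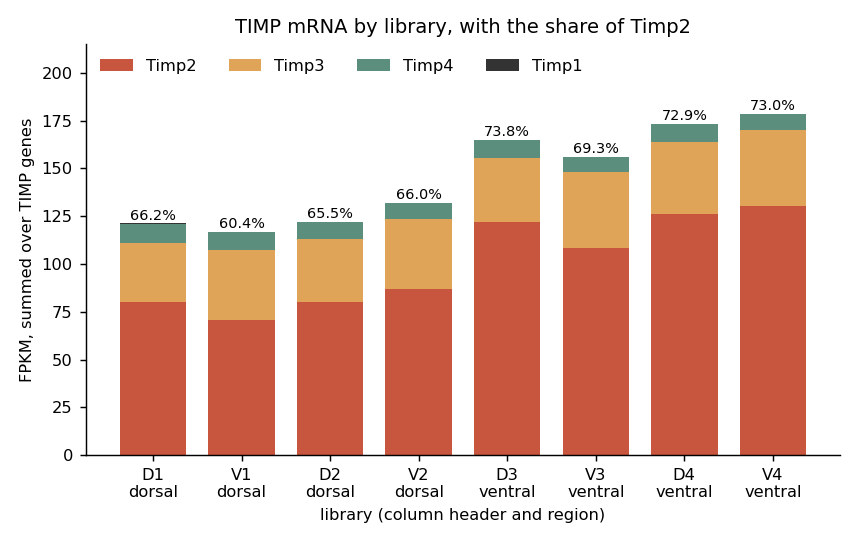
FPKM of *Timp2*, *Timp3*, *Timp4* and *Timp1* stacked for each library, with column header and region below and the share of *Timp2* printed on each bar. Ventral bars reach 156 to 179 and dorsal bars 117 to 132, and the part of the bar above *Timp2* is of similar height in both regions.

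Among the proteases, the membrane-type MMPs made up most of the mRNA. *Mmp16* (MT3-MMP, a transmembrane protease known in brain) led with an FPKM of 25.9, 20.5, 23.9 and 24.6 in dorsal and 27.6, 34.0, 28.8 and 22.9 in ventral libraries. The 3 ventral libraries D3, V3 and D4 were above every dorsal library, while V4 was below 3 of them. The log2(V/D) was 0.26, with 0.16 to 0.34 when each library was left out, and the gene was not called. With the headers' regions the ratio was -0.0582. The range of *Mmp16* over the libraries overlapped that of *Timp3*, although *Timp3* was higher within each of the 8 libraries. *Mmp16* lies at chr4:17852893-18119145 on the plus strand.

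*Mmp17* (MT4-MMP, which is held in the membrane by a GPI anchor) had an FPKM of 11.4, 12.2, 13.3 and 13.4 dorsally and 10.1, 11.8, 11.6 and 10.7 ventrally. Mean FPKM was 12.6 ± 0.964 and 11.1 ± 0.809 (SD, n = 4 each), with ventral libraries V3 and D4 inside the dorsal range and D3 and V4 below it. Its log2(V/D) of -0.18 was the most negative among the 7 genes tested, became 0.049 with the headers' regions, and was not called. *Mmp17* lies at chr5:129584169-129611099 on the plus strand. It made up 25.5% to 30.5% of the FPKM of the 6 MMP genes in dorsal and 22.1% to 25.9% in ventral libraries, and *Mmp16* made up 51.1% to 58.1% and 55.7% to 63.5%, so both shares overlapped.

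*Mmp24* (MT5-MMP, a transmembrane protease that is largely neuronal and cuts N-cadherin) had an FPKM of 4.41, 5.16, 5.37 and 4.26 in dorsal and 5.02, 5.26, 5.70 and 5.15 in ventral libraries. Every ventral value but that of D4 fell within the dorsal range. Its log2(V/D) was 0.14, or -0.0487 with the headers' regions, and it was not called. The gene (chr2:155775342-155818366, plus strand) shares exon positions with *BC029722* on the opposite strand, and its fragment numbers are fractional in all libraries. *BC029722* had a mean FPKM of 8.00, and fragments over shared exons may not be separated.

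*Mmp14* (MT1-MMP, the partner of TIMP2 in the activation of pro-MMP2) was scarce and varied between pools. FPKM was 2.03, 1.52, 1.49 and 0.898 dorsally and 2.22, 1.58, 2.05 and 1.55 ventrally, from 32 to 102 fragments per library. Dorsal library V2 was the lowest and dorsal library D1 reached the level of the higher ventral libraries. The coefficient of variation was 31.2% dorsally and 18.4% ventrally, beside 8.52% and 7.93% for *Timp2*. The log2(V/D) was 0.32, fell to 0.14 without library V2, rose to 0.51 without library D1, and was not called. It was -0.17 in the 4 libraries whose headers name the same region and -0.49 with the regions of the headers, so its direction depended on which libraries were compared. *Mmp14* lies at chr14:54431612-54445364 on the plus strand.

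The remaining 2 proteases did not reach an FPKM of 1. *Mmp15* (MT2-MMP, chr8:95352268-95375080, plus strand) had an FPKM of 0.450, 0.553, 0.584 and 0.458 in dorsal and 0.585, 0.587, 0.714 and 0.721 in ventral libraries, from 27 to 52 fragments. Its regions did not overlap, but the gap between the highest dorsal and the lowest ventral library was under 0.01 FPKM. The log2(V/D) was 0.35, or -0.00946 with the headers' regions. Among the 7 members tested, *Timp2*, the gene selected on these values, was the 1 that was higher in every ventral than in every dorsal library. The shares over all genes tested were 4.95% for this direction and 11.1% for either direction, and nothing is read from this count.

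*Mmp2* (gelatinase A, chr8:92827291-92853420, plus strand), the secreted protease whose proenzyme the TIMP2 and MMP14 complex presents, had an FPKM of 0.388, 0.232, 0.436 and 0.262 dorsally and 0.333, 0.285, 0.259 and 0.157 ventrally. Each library held 6 to 20 fragments, the regions overlapped, and the log2(V/D) was -0.35. It was -0.90 in the 4 libraries with an agreeing header and 0.26 in the other 4, and it was -0.17 without V4 and -0.19 without D2. The authors' program marked *Mmp2* and *Timp1* as having too few alignments for a test. Across the family the order of mean FPKM was *Timp2*, *Timp3*, *Mmp16*, *Mmp17*, *Timp4*, *Mmp24*, *Mmp14*, *Mmp15*, *Mmp2* and *Timp1*. The ranges of neighbors in this order over the 8 libraries were separate, except those of *Timp3* with *Mmp16* and of *Mmp2* with *Timp1*.

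**Figure D3:**
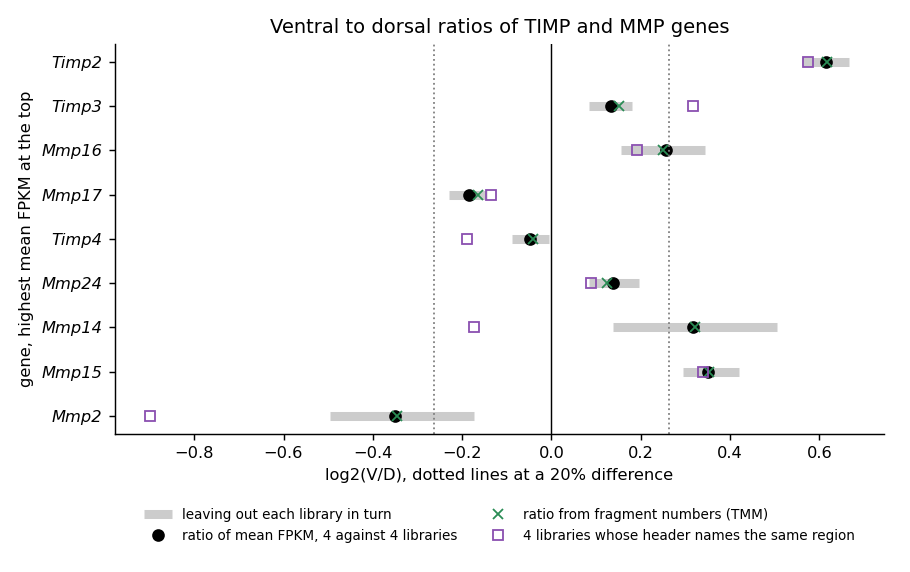
log2(V/D) of the family without *Timp1*, as the ratio of mean FPKM (black circles), its range when each library is left out (grey bars), the ratio of scaled fragment numbers (green crosses) and the ratio in the 4 libraries with an agreeing header (purple squares). *Timp2* lies at 0.61 with all its markers beyond the dotted line of a 20% difference, whereas *Mmp14* moves from 0.32 to -0.17. Ratios with the headers' regions, -0.0436 for *Timp2* and -0.49 for *Mmp14*, are not drawn.

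Summed over the 6 MMP genes, FPKM was 43.4 ± 2.24 dorsally and 47.4 ± 5.20 ventrally (SD, n = 4 each) with overlap. The sum of the TIMPs was 2.84 ± 0.148 times that of the MMPs in dorsal libraries and 3.59 ± 0.581 times in ventral libraries. Ventral library V3 stood at 2.92, within the dorsal range of 2.71 to 3.01, while the other 3 ventral libraries stood between 3.53 and 4.34. The ratio of *Timp2* to *Mmp14* overlapped widely, at 39.5 to 96.9 dorsally and 54.7 to 84.3 ventrally. These are ratios of mRNA and carry no measure of protein or of protease activity.

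Other genes of the same system mostly showed no dorsoventral difference that passed the test. Of 87 listed genes 85 were found by symbol in the table, 50 were tested and 4 were called, 1 V>D and 3 D>V. This is 8% of those tested, beside 3.6% of all genes tested. The lists were chosen with earlier results of these data known, so nothing is read from this share. The adjusted p-values given for list genes below are descriptions for the same reason. The listed genes had a median model log2 change of 0.03 beside -0.01 over all genes tested and 0.13 over the 7 family members tested. None of the 17 other MMP genes reached a mean FPKM of 1. The highest was *Mmp9* (gelatinase B), with a mean FPKM of 0.761, and 9 of the 17, among them *Mmp3*, *Mmp7* and *Mmp12*, were listed at 0 in all 8 libraries.

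The ADAM proteases, relatives that shed proteins from the cell surface, held 9 tested genes of 11, of which 1 was called. *Adam23*, a member without protease activity that binds LGI proteins at synapses, was lower ventrally. FPKM was 41.8, 40.6, 38.4 and 44.3 dorsally and 34.0, 36.2, 32.7 and 32.7 ventrally, without overlap, with a log2(V/D) of -0.28 (adjusted p = 0.044 by limma). Its call was lost when any library but V3 was left out and after rescaling or quantile normalization, and edgeR and DESeq2 put its ratio short of the 20% threshold. The abundant *Adam22*, also without protease activity, was level at a log2(V/D) of -0.005 (114 ± 8.56 and 114 ± 11.8 FPKM), and *Adam15* had 0.25 (adjusted p = 0.33 by limma).

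ADAMTS proteases cut the proteoglycans of the matrix, and 8 of 19 were tested. *Adamts4*, an aggrecanase that cuts brevican and neurocan, was the gene called, with an FPKM of 4.54, 5.13, 5.07 and 5.14 dorsally and 2.64, 3.71, 3.53 and 2.745 ventrally. All ventral libraries were below all dorsal libraries, and the log2(V/D) was -0.65 (adjusted p = 0.019 by limma). Leaving out V1, D2, V2, D3 or V4 moved the adjusted p to between 0.052 and 0.068. *Adamts3* had a log2(V/D) of -0.07 and *Adamts10* of 0.15, and neither was called. By edgeR 3 genes of the list were called, beside 6.35% of all genes in that test. Besides *Adamts4* these were *Adamts20*, at a log2(V/D) of -0.50 (adjusted p = 0.011 by edgeR), and *Adamts17*. *Adamts17* ran the other way, at a log2(V/D) of 0.60 (adjusted p = 0.0083 by edgeR).

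Among activators, receptors and other regulators of MMPs, 14 of 15 genes were tested and 1 was called. *Spock3*, the gene of testican-3, a secreted proteoglycan described as an inhibitor of membrane-type MMPs, ran opposite to *Timp2*. Its FPKM was 37.5, 33.5, 32.2 and 33.2 in dorsal and 24.1, 25.6, 19.4 and 26.1 in ventral libraries, which did not overlap, at a log2(V/D) of -0.52 (adjusted p = 0.016 by limma). Without V1 or without D3 the adjusted p was 0.054 or 0.051. *Spock2*, of the same small family, had an FPKM of 121 ± 10.2 and 137 ± 12.8 with a log2(V/D) of 0.18 and was not called, and *Bsg*, the gene of basigin, an inducer of MMPs, had 0.01. By edgeR 2 genes of the list were called, *Spock3* and *Pcsk5*, beside 6.35% of all genes in that test. *Pcsk5* had a log2(V/D) of 0.41 (adjusted p = 0.026 by edgeR and 0.14 by limma).

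In the plasminogen activator system, which activates several proMMPs, 5 of 8 genes were tested and 0 were called by limma, with 1 at an unadjusted p under 0.05 and 0 called by edgeR. The protease inhibitor genes *Serpini1* (neuroserpin) and *Serpine2* (protease nexin-1) had log2(V/D) values of 0.07 and 0.12, and *Plat*, the gene of tissue plasminogen activator, of 0.03.

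Of 12 synaptic and matrix substrates of MMPs, 11 were tested and 1 was called. *Fn1*, the gene of fibronectin, had an FPKM of 8.70, 12.04, 12.2 and 10.1 dorsally and 15.4, 17.2, 20.4 and 13.5 ventrally. Every ventral library exceeded every dorsal library, at a log2(V/D) of 0.62 (adjusted p = 0.044 by limma). The call was lost when any library but V4 was left out, after rescaling to one total (adjusted p = 0.057 by limma) and without the filter on alignments (0.060). *Cdh2*, the gene of N-cadherin, was also separate between the regions at a log2(V/D) of 0.21 but was not called (adjusted p = 0.13 by limma), and *Ncan* (neurocan) and *Sparcl1* (hevin) had 0.14 and 0.09 and were not called. By edgeR 2 genes of this list were called, beside 6.35% of all genes in that test.

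Markers of other cell types differed between the regions along with *Timp2*. All 6 oligodendrocyte markers were called D>V, among them *Mbp*, the gene of myelin basic protein, with a log2(V/D) of -0.86 and *Mobp* with -1.02, and their summed FPKM was 790 to 1046 in dorsal and 434 to 572 in ventral libraries. Of the markers of leptomeningeal fibroblasts, cells of the brain's covering, 2 of 6 tested were called V>D, the direction of *Timp2*, and the other 4 tested were not called and overlapped between the regions. *Dcn* (decorin) had a log2(V/D) of 0.99 and *Igf2* of 0.57, and the summed FPKM of the list was 73.4 to 77.8 dorsally and 117 to 129 ventrally. These sums mostly reflect *Dcn* and *Igf2*, with mean FPKM of 36.4 and 45.5, beside 7.20 for *Ogn*, the next highest marker. By edgeR 4 genes of the leptomeningeal list were called, beside 6.35% of all genes in that test. No marker of either list was at 0 in any library. The part of these lists in the *Timp2* values was not tested.

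Summed markers of oligodendrocyte precursors were 14.8 to 16.0 dorsally and 17.3 to 17.7 ventrally, and those of microglia 36.7 to 38.6 and 39.9 to 44.2. The sums did not overlap in either list, and 0 of 3 and 0 of 5 of their genes were called by limma, with 1 and 2 at an unadjusted p under 0.05. By edgeR 1 precursor marker, *Pdgfra*, and 0 microglial markers were called. Astrocyte markers summed to 314 to 319 dorsally and 313 to 358 ventrally, endothelial markers to 17.5 to 21.3 and 14.5 to 18.8, and mural markers to 35.8 to 50.4 and 33.4 to 43.1, with 0 genes called by limma in these lists. At an unadjusted p under 0.05 there were 3 astrocyte, 1 endothelial and 0 mural markers, and edgeR called 1, 0 and 0. In the astrocyte sum *Aldoc* was the largest gene, with a mean FPKM of 160 and a log2(V/D) of 0.04. *Aqp4*, *Gfap* and *Slc1a3* were higher in every ventral than in every dorsal library, at 0.20, 0.27 and 0.16. The other astrocyte markers overlapped, and 4.95% of all genes tested were separate in this direction. The part of astrocyte markers in the *Timp2* values was not tested. Choroid plexus markers summed to at most 1.40 FPKM in any library, and 3 of the 4 were at 0 in some libraries. The tissue carried the markers of entorhinal layer II, *Reln*, *Wfs1* and *Calb1*, with mean FPKM of 33.7, 64.5 and 6.21, and the cortical glutamatergic marker *Slc17a7* at 106. *Calb1* was called V>D, as *Timp2* was, at a log2(V/D) of 0.78 (adjusted p = 0.031 by limma). *Wfs1* was called D>V at -0.54 (adjusted p = 0.013 by limma), as was the glutamatergic marker *Slc17a6* at -0.58 (adjusted p = 0.0023 by limma), and *Reln* was not called. The part of these neuronal markers in the *Timp2* values was not tested.

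**Figure D4:**
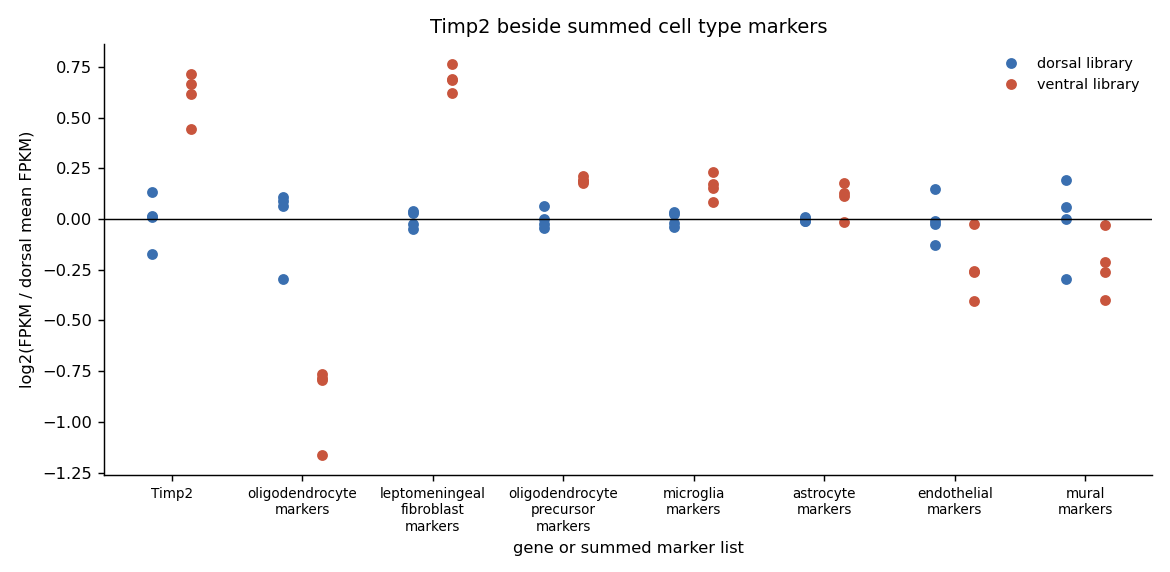
log2 of FPKM relative to the dorsal mean for *Timp2* and for the summed FPKM of 7 lists of cell type markers, in 4 dorsal (blue) and 4 ventral (red) libraries. The ventral points of *Timp2* and of the leptomeningeal list lie above all dorsal points, and those of the oligodendrocyte list, summed FPKM 434 to 572 against 790 to 1046, lie below them. The leptomeningeal sum mostly reflects *Dcn* and *Igf2*.

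The other family members did not share the pattern of *Timp2* closely. Pearson's correlation of log2(FPKM + 1) with *Timp2* was taken over the 8 libraries, which differ in region and depth. It ranged from -0.66 for *Mmp17* to 0.51 for *Mmp16* among the 6 other members tested. The genes most like *Timp2* over the 8 libraries were *Mrgpre* (0.99), *Cpne5* (0.99), *Rap2a* (0.99), *Kcnip2* (0.98) and *Lonrf2* (0.98). They encode an orphan receptor, a copine, a small GTPase, a subunit of potassium channels and a ring finger protein. *Mrgpre*, *Cpne5* and *Kcnip2* were called V>D, with log2(V/D) of 0.62, 0.47 and 0.37, while *Rap2a* and *Lonrf2*, at 0.17 and 0.15, were not called. These correlations are descriptions, since genes that differ between the regions correlate over such libraries.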

How the data were processed

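RNA-Seq of 4 dorsal and 4 ventral MEC libraries was analyzed. RNA (integrity number 7.1 to 8.5, 120 ng per sample) was amplified with the Ovation RNA-Seq System V2. The authors processed reads with CASAVA 1.8, aligned them with TopHat 2.0.8 to the mouse genome with Ensembl release 73 (GRCm38), and computed the deposited FPKM values with Cuffdiff 2, which sums transcripts and scales libraries. The same program of the authors gave the deposited estimated counts of fragments per gene and library. The authors' own comparison columns (ratios, test statistics, p and q) were not used, apart from their mark of too few alignments.

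The members and gene lists were chosen with earlier results of these data known. Genes without that mark and with a mean FPKM of at least 1 (13674) were fitted with limma 3.58.1 (R 4.3.3) after adding 1 to FPKM and taking log2, with a trended prior variance, ventral against dorsal, unpaired. Calls needed a p below 0.05 after Benjamini-Hochberg adjustment over all genes tested and a log2(V/D) of mean FPKM beyond 0.263. Changes on the log2(FPKM + 1) scale understate those of low genes. Named are all members, list genes that were called, up to 3 further genes per list by mean FPKM, and the 5 genes most correlated with *Timp2* by each measure, and some values of genes this rule takes are not reported here. The scripts were tested on simulated data.

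The FPKM columns equal the values of Cuffdiff's conditions q1 and q2 for all 38553 genes, which ties fragment numbers to libraries. The conditions carry no region name, so edgeR 4.0.16 (TMM, quasi-likelihood) and DESeq2 1.42.0 on rounded fragment counts were alternatives chosen after seeing the data. The other alternatives were the constant added, filters on FPKM and alignments, rescaling, quantile normalization, sample weights, the headers' regions and leaving out each library. Gene positions are those of GENCODE M21. Python 3.11.15, NumPy 2.4.6, pandas 2.3.3 and matplotlib 3.10.9 were used.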

Additional observations from a re-analysis of the deposited data

Results flagged for a closer look

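The share of *Timp2* in TIMP FPKM was 60.4% in the dorsal library V1, while the other 3 dorsal libraries lay between 65.5% and 66.2%. The gap below them was 0.874 of the dorsal range, above Dixon's 95% critical value for 4 samples. Library V1 was also the dorsal library with the lowest *Timp2* (70.6 FPKM) and the highest *Timp3* (36.9 FPKM). It was the deepest library, with 15359782 assigned fragments. Of 20 groups of FPKM shares and sums examined this was the one that passed, and chance passes about 1 in 20.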

How the results depend on the processing

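*Timp2* was called in 19 of 21 alternatives, but it was selected on this contrast, so nothing is read from this count. No other family member was called where it was tested, which was in all 21 for *Timp3*, *Timp4*, *Mmp16*, *Mmp17* and *Mmp24*, 20 for *Mmp14*, 3 for *Mmp15*, 2 for *Mmp2* and 0 for *Timp1*. With the regions of the column headers its log2(V/D) was -0.0436, those of *Adam23*, *Adamts4*, *Spock3* and *Fn1* were 0.0649, 0.0839, 0.0658 and -0.101, and limma called 1 D>V gene, 0 V>D genes, 0 family members and 0 list genes, with 721 genes at an unadjusted p under 0.05. The 4 libraries with the same region in both sources gave 0 calls in each of these counts by limma, with 1240 genes at an unadjusted p under 0.05. This alternative compares 2 with 2 libraries. Against 294 D>V and 198 V>D calls in all libraries, edgeR called 519 and 456 and DESeq2 524 and 448. Calls among list genes were 4, and became 7 by edgeR and 2 after each library was rescaled to one total. Leaving out each library gave 157 to 341 D>V and 91 to 191 V>D calls. D>V calls moved by over 1.5 times without V1 (157), V2 (189) or D3 (163), and V>D calls without V1 (91), D2 (123), D3 (91) or D4 (121). List calls lay between 0 and 3, with 2 without D1, D4 or V4, 1 without D2 or V2, 0 without V1 or D3 and 3 without V3. The *Timp2* share was 7.70 points higher ventrally, 5.26 points in the 4 libraries and -2.44 with the headers' regions. The cause was not tested in these cases. No paired analysis was possible because the sources used here do not say which dorsal and ventral libraries come from the same mice. Values of *Timp1*, *Mmp2* and *Mmp15* are limited by depth, at 52 fragments per library or fewer.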

Other observations

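Within the regions, *Timp2* varied little, with a coefficient of variation of 8.52% dorsally and 7.93% ventrally. The genes whose deviations from the region means were most like those of *Timp2* over the 8 libraries were *Cblb* (r = 0.97), *Nrsn2* (0.97), *Cul4b* (0.97), *Tfe3* (0.97) and *Usp35* (0.96). None of these was called between the regions, and their log2(V/D) lay between -0.06 for *Cul4b* and 0.19 for *Nrsn2*. None of them was among the 5 genes most like *Timp2* when the regions were not removed. Among the 6 other family members tested the same correlation lay between -0.39 for *Mmp24* and 0.01 for *Mmp17*. These are descriptions across libraries of both regions that differ in depth, and no p-value is given.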
